A study of Mus musculus with 4 samples.

Results

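The Ifi200 genes, which encode the mouse PYHIN proteins, lie side by side on chromosome 1, and their mRNA was examined in LSK cells of *Pich*-KO and *Pich*-WT fetal liver. The 10 genes *Aim2*, *Ifi203*, *Ifi204*, *Ifi206*, *Ifi207*, *Ifi208*, *Ifi209*, *Ifi211*, *Ifi213* and *Mndal* were taken by name from the 39186 genes of the deposited RNA sequencing table. LSK cells are the Lin−Sca-1+c-Kit+ fraction in which hematopoietic stem and early progenitor cells are enriched. Both groups were C57BL/6 mice with 2 samples each. The *Pich*-KO line carries a small deletion at the start of exon 2 of the X-linked *Pich* gene, which encodes the DNA translocase PICH, in all cells of the embryo and not in blood cells alone. The study describes its sorts from E14.5 fetal liver, with lineage antibodies against CD4, CD8, Gr-1, B220 and Ter119, a panel that holds no antibody to a macrophage or endothelial antigen. The labels give neither the age of these samples nor whether each is 1 embryo or a pool, so p-values measure the spread between these samples, which may be technical.

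Typical PYHIN proteins join a pyrin domain, through which they bind partner proteins, to 1 or more HIN domains, which bind DNA, but not every member has both. AIM2 is the best known of them: on double-stranded DNA in the cytosol it assembles an inflammasome with the adaptor ASC and caspase-1, and caspase-1 then cleaves pro-IL-1β, pro-IL-18 and gasdermin D. IFI204 has been linked to DNA sensing through STING, in the same way as its human relative IFI16. Many genes of the cluster are induced by interferon, whose receptor signals to the interferon-stimulated response element (ISRE) in target promoters.

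The samples held between 14703215 and 20933919 gene reads. *Pich*-WT sample 2 had 0 reads on 4 Y-linked genes and 699 on *Xist*, whereas the other samples had 1607 to 2848 and 4 to 13. *Ercc6l*, the PICH gene, was higher in *Pich*-KO, with 1142 and 1232 normalized counts against 772 and 661 (log2 fold change 0.73, limma adjusted p = 0.00887), and since transcripts of the deletion allele are counted too, its level does not check the labels. Of the sort markers, *Ly6a* (Sca-1) was higher in *Pich*-KO at 3282 ± 430 (SD, n = 2) against 981 ± 113, and *Kit* was 3610 ± 1184 against 2421 ± 131. *Ly6a* was the 1 gene of 11 LSK markers that was higher, while 5 stem cell genes (*Procr*, *Hlf*, *Mecom*, *Slamf1* and *Gata2*) were lower and the median log2 fold change of the list was -0.57. The summed normalized count of 14 macrophage markers was 9238 to 10554 in *Pich*-KO and 60552 to 62145 in *Pich*-WT, with 13 of the 14 lower, and *Vsig4* had 2 and 0 reads in *Pich*-KO. All 6 erythroid markers (23954 to 26361 against 104594 to 140459) and all 5 endothelial markers (1349 to 2102 against 17419 to 26051) were lower too. Of 10 monocyte and neutrophil markers 2 were higher (*Mpo*, *Ly6c2*) and 2 lower (*Ccr2*, *Itgam*), with sums of 59194 to 106645 against 19622 to 21016. *Mpo* carried that sum, and without it the sums overlapped, at 4547 and 16152 in *Pich*-KO samples 1 and 2 against 9271 and 8483. For *S100a8*, *S100a9*, *Elane*, *Ngp* and *Ltf* of that list, *Pich*-KO sample 2 had 4.64 to 8.02 times the value of sample 1. *Mpo* (54647 and 90492 in *Pich*-KO samples 1 and 2) and *Ly6c2* (1068 and 2891) were also higher in sample 2. *Ccr2* was nearly level (1315 and 1358), *Itgam* was lower in sample 2 (145 and 85.3), and *Ly6g* had 1 read in each. Among the dendritic cell (5 genes), lymphoid (7), hepatocyte (5) and megakaryocyte (4) markers, 3 of each list were lower and 0 higher, and no marker was at 0 in every sample. The part of these differences in the PYHIN values was not tested. In bulk RNA, a change in the number of cells of a type and a change in RNA per cell cannot be told apart.

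Most of the PYHIN genes were higher in *Pich*-KO LSK cells, by very different amounts. *Ifi206* and *Ifi213* were more than 10-fold higher, *Ifi208* was 6.85-fold and *Ifi209* 4.27-fold higher, and *Ifi203*, *Ifi211*, *Mndal* and *Ifi204* were 1.91- to 2.29-fold higher, all as ratios of the group means. *Ifi207*, in the middle of the cluster, went the other way. The test was limma on log2-transformed normalized counts after adding 1, and the 10 PYHIN genes were all among the 32428 whose mean count reached 1. At a Benjamini-Hochberg adjusted p of 0.05, 8 of the 10 were higher, where 7.58% of all genes tested were higher, and 1 was lower, where 9.6% of all genes were lower. The remaining gene, *Aim2*, did not pass. Among the 8, 6 had a log2 fold change of at least 1, against 2.78% of all genes. The median log2 fold change of all 10 PYHIN genes was 1.14, compared with 0.025 over all genes. Both *Pich*-KO samples lay above both *Pich*-WT samples for 9 of the 10, against 28.9% of genes, and below them for *Ifi207*, against 27.2%. The study itself displays *Ifi206*, *Ifi209* and *Ifi213* as interferon response genes in these samples, so these 3 are not independent evidence. Of the other 7 genes 5 were higher, *Ifi208* among them. These 7 come from the same samples and were chosen with earlier results known, so they are not independent evidence either.

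**Figure D1:**
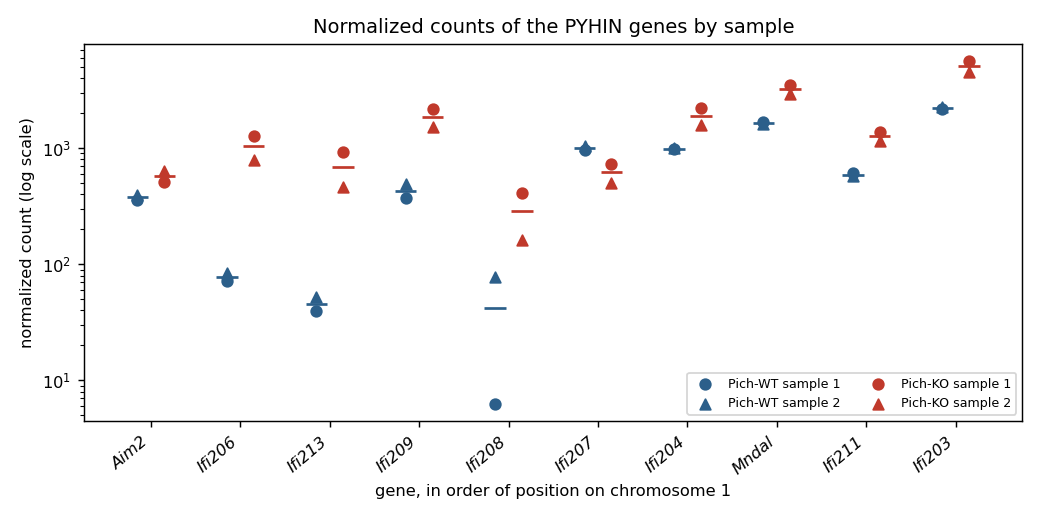
Normalized counts of the 10 PYHIN genes on a log axis, in order of position on chromosome 1, with 1 point for each of the 2 *Pich*-KO and 2 *Pich*-WT samples and a short line at each group's mean. The *Pich*-KO points lie above the *Pich*-WT points for every gene except *Ifi207*, and the widest gaps are those of *Ifi206* and *Ifi213*.

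The calls rest on the variance that limma shares between genes of like abundance. With 2 samples against 2, an exact permutation test of 1 gene cannot go below p = 0.333. When the prior variance was held constant instead of following abundance, limma called 0 of the 10 genes, although 7 had an unadjusted p under 0.05, and 0 genes of the whole table, although 7377 had an unadjusted p under 0.05. Leaving out *Pich*-KO sample 1 left 4 PYHIN genes higher and 0 lower. Leaving out *Pich*-KO sample 2, *Pich*-WT sample 1 or *Pich*-WT sample 2 left 0 called, in the family and in the whole table, where 7572, 6062 and 5716 genes had an unadjusted p under 0.05. The direction of each gene was the same in every fit and without each sample.

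Promoter sequences of the cluster are shown because interferon-responsive promoters carry a defined DNA element and because the printed stretches differ at that element. They were taken from RefSeq promoter windows on GRCm38.p6, which run from 250 bases before to 50 bases after a start, and the 150 bases before the start are printed 5′ to 3′ on the gene's strand. Capitals mark the ISRE core, searched as GAAA, any 2 bases and GAAA, or as TTTC, any 2 bases and TTTC for the other strand. Of the genes printed, those with the largest rises come first, then the gene that fell, then those with smaller changes. The windows of *Ifi208*, which rose more than *Ifi209*, and of *Ifi203* are not printed.
Ifi206 (chr1:173491319-173491468, minus strand): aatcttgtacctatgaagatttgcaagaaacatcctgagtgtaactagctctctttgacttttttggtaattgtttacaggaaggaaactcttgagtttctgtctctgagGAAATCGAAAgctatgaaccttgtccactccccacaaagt
Ifi213 (chr1:173599273-173599422, minus strand): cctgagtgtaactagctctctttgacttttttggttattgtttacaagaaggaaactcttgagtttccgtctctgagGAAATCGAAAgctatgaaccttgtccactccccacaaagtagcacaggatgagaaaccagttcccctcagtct
Ifi209 (chr1:173630709-173630858, plus strand): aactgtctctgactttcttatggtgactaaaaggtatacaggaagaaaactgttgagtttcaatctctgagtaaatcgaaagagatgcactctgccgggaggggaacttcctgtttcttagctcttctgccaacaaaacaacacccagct
Ifi207 (chr1:173741810-173741959, minus strand): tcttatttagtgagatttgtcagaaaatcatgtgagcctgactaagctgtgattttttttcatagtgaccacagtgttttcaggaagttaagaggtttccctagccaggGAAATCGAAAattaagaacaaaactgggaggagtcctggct
Ifi211 (chr1:173913047-173913196, minus strand): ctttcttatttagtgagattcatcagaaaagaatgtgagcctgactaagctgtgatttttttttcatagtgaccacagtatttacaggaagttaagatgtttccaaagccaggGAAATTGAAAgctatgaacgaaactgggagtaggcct
Mndal (chr1:173880188-173880337, minus strand): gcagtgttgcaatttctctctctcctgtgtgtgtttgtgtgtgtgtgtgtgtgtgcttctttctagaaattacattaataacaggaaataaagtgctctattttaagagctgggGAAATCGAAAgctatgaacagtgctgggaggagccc
Aim2 (chr1:173420454-173420603, plus strand): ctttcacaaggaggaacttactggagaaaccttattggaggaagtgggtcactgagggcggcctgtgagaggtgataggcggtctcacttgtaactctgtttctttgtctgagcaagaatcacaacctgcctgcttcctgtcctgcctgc

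Windows were found for 9 of the 10 genes, and *Ifi204* was without one. The windows of *Aim2* and *Mndal* lie inside the gene models on which reads were counted. Those models begin further upstream, at chr1:173350879 for *Aim2* and at chr1:173942491 for *Mndal*, and no window of either gene lies at that outer start. At least 1 ISRE core was present in 7 of the 9, whereas 3.44% of all 32851 promoter windows of that length hold one. In 6 genes (*Ifi203*, *Ifi206*, *Ifi207*, *Ifi208*, *Ifi213* and *Mndal*) the core was the same 10 letters, GAAATCGAAA, which occur in 0.0487% of all windows. It began 35 bases before the start in *Ifi203*, 36 in *Mndal*, 40 in *Ifi206*, 41 in *Ifi207*, 58 in *Ifi208* and 73 in *Ifi213*. *Ifi203* and *Mndal* each have a window at another start, which holds no core in *Ifi203* and TTTCTCTTTC in *Mndal*. The core of *Ifi211*, 37 bases before the start, differs from the common letters by C6T, counted from the first base of the core.

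The 2 genes without a core in the windows read were *Ifi209* and *Aim2*. In *Ifi209* the nearest copy begins 79 bases before the start and differs by G1T, a change that takes it out of the searched pattern. The nearest copy in *Aim2* has 3 substitutions from the common letters. That same site, TTTCTTTGTC, is 1 mismatch (T8G) from the searched pattern. So the core was present in *Ifi207*, which was lower in *Pich*-KO, and not matched in *Ifi209*, which was 4.27-fold higher. No window of the 9 genes held the GAS core TTCNNNGAA, which reads the same on both strands and occurs in 8.3% of all windows. These are letter matches and not measured binding sites. Promoters of the family are also copies of each other: *Ifi206* and *Ifi208* share a run of 182 identical bases, *Ifi213* shares 135 with each of them, and *Mndal* and *Ifi203* share 139.

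**Figure D2:**
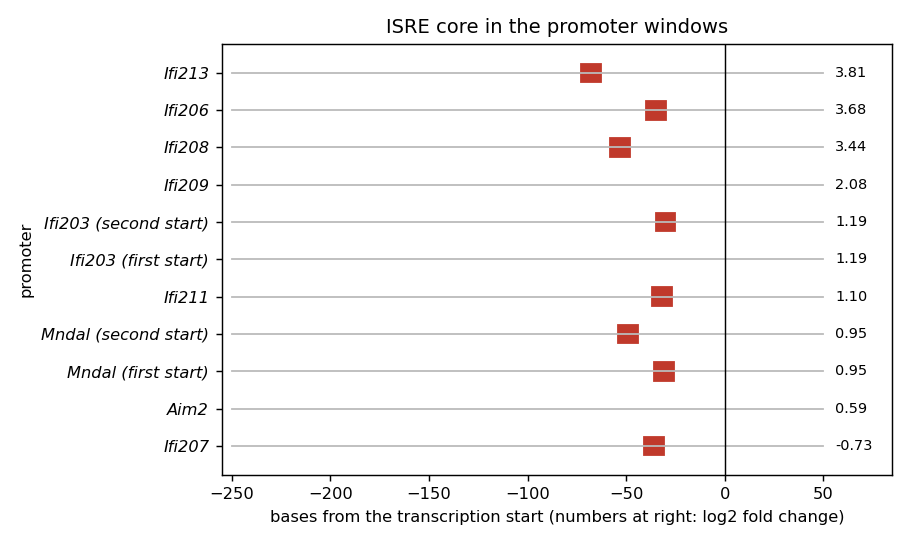
Position of the ISRE core (red box) in the promoter windows of 9 PYHIN genes, in bases from the transcription start, with each gene's log2 fold change at the right. Cores lie within 73 bases before the start where present, and the windows of *Ifi209* and *Aim2* and 1 of the 2 windows of *Ifi203* have none.

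*Ifi206* (ENSMUSG00000037849, chr1:173468485-173491041, minus strand) had normalized counts of 1268 and 795 in *Pich*-KO samples 1 and 2 and 71.1 and 84.0 in *Pich*-WT samples 1 and 2. Both *Pich*-KO samples stood far above both *Pich*-WT samples, and the spread between the *Pich*-KO samples was small beside that gap. The means were 1032 ± 335 (SD, n = 2) and 77.6 ± 9.11 (SD, n = 2), a log2 fold change of 3.68 (SE 0.25, 95% interval 3.10 to 4.26, limma adjusted p = 9e-05). The product, like those of the neighbouring genes, is a PYHIN protein whose cellular role is little known.

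*Ifi213* (ENSMUSG00000073491, chr1:173566283-173599274, minus strand), also named *Pydc4*, had 925 and 460 normalized counts in *Pich*-KO against 39.9 and 52.0 in *Pich*-WT. The groups did not overlap, although *Pich*-KO sample 1 was 2.01 times sample 2. The means of 693 ± 328 and 45.9 ± 8.59 (SD, n = 2) gave the largest log2 fold change of the 10 genes, 3.81 (SE 0.34, 95% interval 3.03 to 4.59, limma adjusted p = 0.000259). Its ratio to *Ifi206* hardly moved, since *Ifi206* had 1.37 and 1.73 times the normalized count of *Ifi213* in *Pich*-KO against 1.78 and 1.62 times in *Pich*-WT. The 2 genes thus rose by like amounts.

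*Ifi208* (ENSMUSG00000066677, chr1:173673675-173698395, plus strand), also named *Pydc3*, is the least certain of the rises. Its normalized counts were 410 and 160 in *Pich*-KO against 6.25 and 77.0 in *Pich*-WT, from 376, 141, 8 and 77 reads. The *Pich*-WT samples differed more than 10-fold from each other, far more than for any other gene of the family. The log2 fold change was 3.44 (SE 0.97, 95% interval 1.20 to 5.67, limma adjusted p = 0.046), larger than the ratio of the means (6.85-fold) because it averages logs. It was 1.72 without *Pich*-WT sample 1 and 5.15 without *Pich*-WT sample 2. The call was lost with a pseudocount of 0.1 (limma adjusted p = 0.112), without the filter on the mean (0.144), in edgeR (adjusted p = 0.0513) and in DESeq2 (adjusted p = 0.138).

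*Ifi209* (ENSMUSG00000043263, chr1:173630917-173647928, plus strand), also named *Pyhin1*, had 2160 and 1520 normalized counts in *Pich*-KO against 368 and 494 in *Pich*-WT. Both *Pich*-KO values were well clear of both *Pich*-WT values. Its means were 1840 ± 452 and 431 ± 89.0 (SD, n = 2), with a log2 fold change of 2.08 (SE 0.21, 95% interval 1.60 to 2.57, limma adjusted p = 0.000447).

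**Figure D3:**
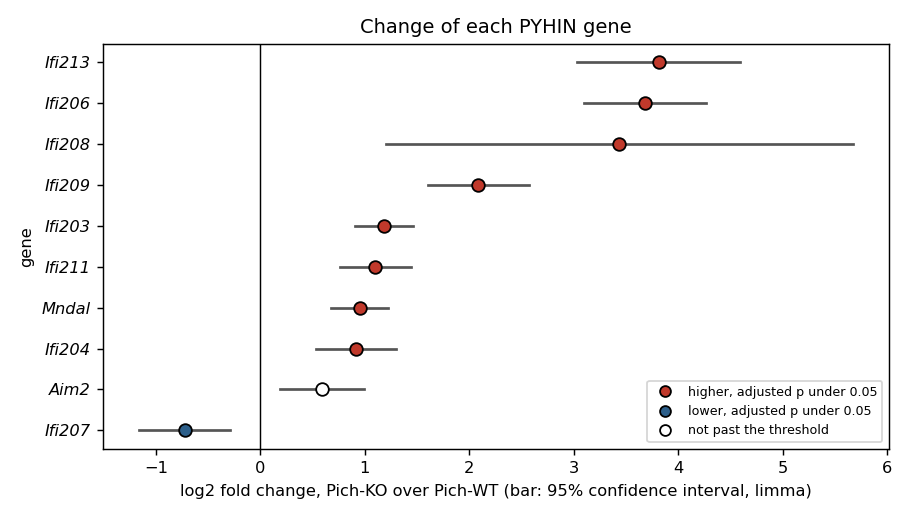
Log2 fold change of each PYHIN gene, *Pich*-KO over *Pich*-WT, with its 95% confidence interval from limma. *Ifi213*, *Ifi206* and *Ifi208* are at 3.44 to 3.81 with the widest interval for *Ifi208*, *Ifi207* is the only gene below 0, and *Aim2* is drawn open because it did not pass the threshold.

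At the distal end of the cluster 4 abundant genes rose by about the same modest factor. *Ifi203* (ENSMUSG00000039997, chr1:173920407-173942672, minus strand) had 5596 and 4501 normalized counts in *Pich*-KO against 2179 and 2237 in *Pich*-WT. It was the gene with the most reads of the family in every sample, and the groups were well apart. The means of 5049 ± 774 and 2208 ± 41.1 (SD, n = 2) gave a log2 fold change of 1.19 (SE 0.12, 95% interval 0.91 to 1.46, limma adjusted p = 0.000471).

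*Mndal* (ENSMUSG00000090272, chr1:173849126-173942491, minus strand), named for its likeness to the myeloid cell nuclear differentiation antigen, had 3465 and 2920 normalized counts in *Pich*-KO against 1669 and 1626 in *Pich*-WT. The *Pich*-WT samples were almost equal. The log2 fold change was 0.95 (SE 0.12, 95% interval 0.68 to 1.22, limma adjusted p = 0.00116). Its gene model runs over *Ifi211* and most of *Ifi203* and shares 37 exon bases with *Ifi203* on the same strand. The ratio of *Mndal* to *Ifi203* was 0.619 and 0.649 in *Pich*-KO against 0.766 and 0.727 in *Pich*-WT, and so was lower in both *Pich*-KO samples.

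*Ifi211* (ENSMUSG00000026536, chr1:173896345-173913046, minus strand), listed in RefSeq under the synonym *Mnda*, had 1386 and 1140 normalized counts in *Pich*-KO against 605 and 569 in *Pich*-WT. Its log2 fold change was 1.10 (SE 0.15, 95% interval 0.76 to 1.44, limma adjusted p = 0.00168). This value is uncertain for another reason, since 72.8% of the 50-base stretches of its transcripts also occur in transcripts of other genes, mainly *Ifi205* (44.7%) and *Ifi204* (30.1%). With *Ifi211* left out, 7 genes of the family were higher.

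*Ifi204* (ENSMUSG00000073489, chr1:173747293-173766943, minus strand), the relative of human IFI16, had 2212 and 1576 normalized counts in *Pich*-KO against 989 and 991 in *Pich*-WT. The lowest *Pich*-KO value was clear of both *Pich*-WT values, which were nearly identical. The means were 1894 ± 450 and 990 ± 1.14 (SD, n = 2), with a log2 fold change of 0.91 (SE 0.17, 95% interval 0.53 to 1.30, limma adjusted p = 0.0073).

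*Ifi207* (ENSMUSG00000073490, chr1:173723427-173741747, minus strand), between *Ifi208* and *Ifi204*, was the gene that fell. Its normalized counts were 731 and 505 in *Pich*-KO against 970 and 1043 in *Pich*-WT. Both *Pich*-KO samples lay below both *Pich*-WT samples, with means of 618 ± 160 and 1006 ± 51.7 (SD, n = 2). The log2 fold change was -0.73 (SE 0.19, 95% interval -1.16 to -0.29, limma adjusted p = 0.0339). The call was lost with a pseudocount of 0.1 (limma adjusted p = 0.0661) and without the filter on the mean (0.0891), and it was kept by edgeR (adjusted p = 0.028) and DESeq2 (adjusted p = 0.00429).

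The normalized count of *Ifi207* stood in another ratio to those of *Ifi206* and *Ifi204* in each group. *Ifi206* had 0.0733 and 0.0805 times the normalized count of *Ifi207* in *Pich*-WT, and 1.74 and 1.57 times in *Pich*-KO. *Ifi204*, which lies next to *Ifi207*, went from 1.02 and 0.95 times *Ifi207* in *Pich*-WT to 3.03 and 3.12 times in *Pich*-KO. These ratios are taken within each sample, so the size factors do not enter them, and they are not per length. Of the 50-base stretches of *Ifi207*, 7.3% occur in transcripts of another gene, the lowest share among the 10 genes after *Aim2*.

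*Aim2* (ENSMUSG00000037860, chr1:173350879-173466040, plus strand), the inflammasome sensor at the proximal end, had 513 and 633 normalized counts in *Pich*-KO against 360 and 398 in *Pich*-WT. The groups did not overlap, with means of 573 ± 85.2 and 379 ± 27.2 (SD, n = 2). The log2 fold change of 0.59 (SE 0.17, 95% interval 0.19 to 0.99) did not pass in limma (adjusted p = 0.0537). It did pass in edgeR (adjusted p = 0.0274), in DESeq2 (adjusted p = 0.0218) and among genes with at least 10 reads in every sample (limma adjusted p = 0.0286). edgeR and DESeq2 thus also counted 8 genes higher, with *Aim2* in place of *Ifi208*.

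*Aim2* also differed from the rest in how the *Pich*-KO samples were ordered. In the other 9 genes, *Ifi207* included, sample 1 exceeded sample 2, whereas *Aim2* had 0.81 times as much in sample 1. Over all genes tested, 48% were higher in sample 1.

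**Figure D4:**
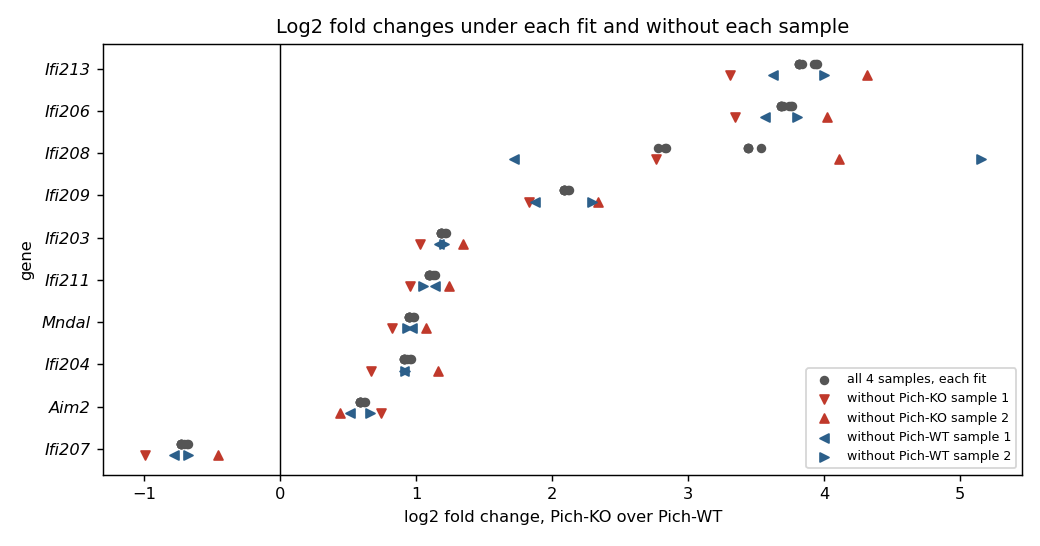
Log2 fold change of each PYHIN gene under each fit of all 4 samples (grey) and with each sample left out in turn (red for *Pich*-KO, blue for *Pich*-WT). All points of a gene lie on the same side of 0, and *Ifi208* has the widest spread, from 1.72 to 5.15.

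Reads on the 10 genes together came to 1126 and 850 RPM (reads per 1000000 reads on genes) in *Pich*-KO against 444 and 486 RPM in *Pich*-WT. The makeup of those reads differed between the groups as well as their number. *Ifi206* took 6.8% and 5.59% of the family's reads in *Pich*-KO against 0.98% and 1.11% in *Pich*-WT, and *Ifi213* took 4.96% and 3.24% against 0.549% and 0.687%. *Ifi209* went from 5.07% and 6.52% in *Pich*-WT to 11.6% and 10.7% in *Pich*-KO. *Ifi207* went from 13.4% and 13.8% to 3.91% and 3.55%. The largest contributor kept its place, since *Ifi203* took 29.5% to 31.7% in all 4 samples. These shares depend on transcript length and on how shared reads were counted.

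**Figure D5:**
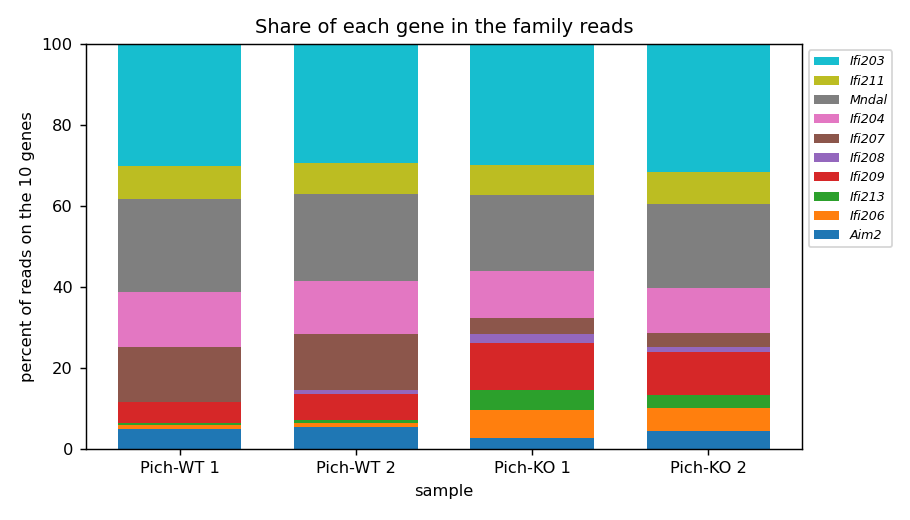
Percent of the reads on the 10 PYHIN genes that fell on each gene, as stacked bars for the 2 *Pich*-WT and 2 *Pich*-KO samples. *Ifi203* takes 29.5% to 31.7% in every sample, while *Ifi207* is wide in *Pich*-WT and narrow in *Pich*-KO and *Ifi206*, *Ifi213* and *Ifi209* widen.

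To order the genes by level, reads were taken per length, unlike the ratios and shares above, as RPKM (reads per kilobase of exon, scaled to all reads on genes in the sample), with the union of all exons as length. In *Pich*-WT the order of the mean levels was *Mndal* (28.5 RPKM), *Ifi203* and *Ifi211* (both 20.6), *Ifi207* (18.5), *Ifi204* (17.4), *Ifi209* (7.64), *Aim2* (6.79), *Ifi206* (1.60), *Ifi208* (0.507) and *Ifi213* (0.422). Neighbours whose sample values overlapped were *Ifi203* and *Ifi211*, *Ifi207* and *Ifi204*, *Ifi209* and *Aim2*, and *Ifi208* and *Ifi213*. The 3 genes with the largest log2 fold changes were therefore the 3 lowest in *Pich*-WT.

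In *Pich*-KO the order was *Mndal* (52.9 RPKM), *Ifi203* (45.3), *Ifi211* (42.5), *Ifi204* (32.0), *Ifi209* (31.2), *Ifi206* (20.3), *Ifi207* (10.9), *Aim2* (9.83), *Ifi213* (6.09) and *Ifi208* (3.26). Sample values overlapped between *Mndal* and *Ifi203*, *Ifi203* and *Ifi211*, *Ifi204* and *Ifi209*, *Ifi207* and *Aim2*, and *Ifi213* and *Ifi208*. With exon union length, *Ifi213* and *Ifi208* were thus the lowest pair in both groups, whereas *Ifi206* passed both *Aim2* and *Ifi207*. With the longest transcript as length, *Mndal* was at 94.7 RPKM in *Pich*-KO and was still the highest in both groups. The lower ranks depended on the length. With the longest transcript, *Ifi213* (13.5 RPKM) stood above *Aim2* (12.1) and *Ifi207* (10.9) in *Pich*-KO, with overlapping sample values.

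Sequence shared between the genes limits how far reads can be assigned to 1 of them. Apart from *Ifi211*, the share of 50-base stretches found in transcripts of other genes was highest for *Ifi209* at 33.7%, nearly all of it in *Ifi214*, and 12.4% to 25.6% for *Ifi206*, *Ifi208*, *Ifi204*, *Mndal*, *Ifi213* and *Ifi203*. For *Ifi208* and *Ifi213* the sharing was mostly with each other. How the counting treated such reads is not given in the sources used here. The share was 0.7% for *Aim2*.

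The table also lists 4 further genes or pseudogenes of the family. For *Ifi214*, which lies inside the cluster, 67 and 33 reads were counted in *Pich*-KO against 21 and 19 in *Pich*-WT. Its log2 fold change was 1.52 (SE 0.43, limma adjusted p = 0.0496), which was lost with a pseudocount of 0.1 (0.0718) and without the filter (0.0952). As 14.5% of its 50-base stretches occur in *Ifi209*, reads from that sequence cannot be assigned to either gene. For *Ifi205*, beyond the distal end, the counts were 342 and 92 reads in *Pich*-KO against 1130 and 671 in *Pich*-WT. Both *Pich*-KO values were below both *Pich*-WT values, with a log2 fold change of -1.96 (SE 0.50, limma adjusted p = 0.031). The call was lost with a pseudocount of 0.1 (limma adjusted p = 0.0813), without the filter on the mean (0.113) and in DESeq2 (adjusted p = 0.104), and kept in edgeR (adjusted p = 0.0377). Its log2 fold change was negative, as for *Ifi207*, and that of *Ifi211* positive, a gene with which it shares 18.5% of its 50-base stretches. *Ifi205* also holds 2 ISRE cores in its window, at 134 bases before and 23 bases after the start.

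The other two had few reads. *Ifi202b*, whose product lacks a pyrin domain and restrains AIM2, was at 5 and 6 reads in *Pich*-KO against 12 and 12 in *Pich*-WT (limma adjusted p = 0.479). The pseudogene *Ifi203-ps* had 33 and 16 reads against 39 and 25 (limma adjusted p = 0.919). Of the 8 names listed as further PYHIN genes, the other 4 are RefSeq synonyms of *Ifi208*, *Ifi209*, *Ifi211* and *Ifi213*.

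Genes around the cluster were set beside the share called over the whole table. The 10 genes span chr1:173350879-173942672, a stretch of 591.8 kb, and 65 other genes lie inside it or within 1 Mb to either side. Of the 59 of these that were tested, 2 were higher and 6 lower, where 7.58% of all genes were higher and 9.6% lower, and the median log2 fold change was -0.20. The genes that were higher were *Ifi214* and *Tagln2*, an actin-binding protein gene on the proximal side, at 12485 and 12528 normalized counts against 10074 and 9156 (log2 fold change 0.38, limma adjusted p = 0.0113). The 6 that were lower were *Ifi205* and the proximal genes *Ackr1*, *Slamf8*, *Slamf9*, *Cfap45* and *Kcnj10*. *Ackr1*, the atypical chemokine receptor of endothelial and erythroid cells, had the lowest adjusted p of them, with 39.3 and 39.8 normalized counts against 288 and 187 (log2 fold change -2.53, limma adjusted p = 0.00083).

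Genes that act with AIM2 were considered next. Of 14 inflammasome genes, 2 were higher and 3 lower, where 7.58% and 9.6% of all genes were, with a median log2 fold change of 0.009 against 0.025 over all genes. *Casp4*, which encodes the inflammatory caspase of the non-canonical pathway, had 252 and 233 normalized counts in *Pich*-KO against 136 and 148 in *Pich*-WT (log2 fold change 0.77, limma adjusted p = 0.0351). *Pycard*, which encodes ASC, had 1122 and 1163 against 885 and 771 (log2 fold change 0.47, limma adjusted p = 0.0486). The caspase-1 gene *Casp1* had 592 and 862 against 565 and 636 (limma adjusted p = 0.475), and its groups overlapped.

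Among the products that the inflammasome processes or releases, the cytokine genes were lower. *Il1b* had 43.6 and 21.6 normalized counts in *Pich*-KO against 258 and 115 in *Pich*-WT (log2 fold change -2.45, limma adjusted p = 0.00887). *Il18* had 140 and 79.6 against 400 and 427 (log2 fold change -1.96, limma adjusted p = 0.00227). Both are expressed by macrophages, whose 14 markers had a median log2 fold change of -4.84 in the same comparison, and the part of those cells was not tested. *Ninj1*, needed for membrane rupture, was at -0.50 (limma adjusted p = 0.0248), and the gasdermin D gene *Gsdmd*, at 1213 and 1382 against 1241 and 1184, had overlapping groups (limma adjusted p = 0.692).

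Genes of STING-dependent DNA sensing, the pathway to which IFI204 is linked, were higher or did not pass the test. Of the 10 that were tested, 7 were higher and 0 lower, against 7.58% and 9.6% of all genes, with a median log2 fold change of 0.78. Several of these genes are ones the study works with in the same samples, so the count is not independent evidence. *Zbp1*, which encodes a sensor of Z-form nucleic acid, had the largest difference, with 1719 and 868 normalized counts in *Pich*-KO against 226 and 245 in *Pich*-WT (log2 fold change 2.37, limma adjusted p = 0.0011). *Mb21d1*, the cGAS gene, had 1319 and 1190 against 560 and 611 (log2 fold change 1.10, limma adjusted p = 0.00118). The smallest difference that passed was that of *Tmem173*, the STING gene, with 2292 and 2350 against 1622 and 1612 (log2 fold change 0.52, limma adjusted p = 0.0105). *Irf3* (limma adjusted p = 0.412), *Samhd1* (0.734) and *Ifnb1* (0.112) did not pass. *Ifnb1* had 22.9 and 13.6 normalized counts in *Pich*-KO against 6.25 and 5 in *Pich*-WT, from 21, 12, 8 and 5 reads. Its groups did not overlap, and with so few reads the test does not show that its level was unchanged.

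Of 10 genes of interferon receptor signalling, 3 were higher and 2 lower, where 7.58% and 9.6% of all genes were, with a median log2 fold change of 0.024 against 0.025 over all genes. The 3 were *Stat2* and *Irf9*, whose products take part in transcription from the ISRE, and *Usp18*, an inhibitor of the receptor that is itself induced by interferon. *Usp18* had 6690 and 3071 normalized counts in *Pich*-KO against 230 and 245 in *Pich*-WT (log2 fold change 4.25, limma adjusted p = 0.000113), and *Irf9* had 1634 and 1862 against 1035 and 1039 (log2 fold change 0.75, limma adjusted p = 0.00433). The receptor subunit gene *Ifnar1*, with 1657 and 1382 against 2302 and 2156 (log2 fold change -0.56, limma adjusted p = 0.0185), and the receptor-bound kinase gene *Jak1*, at -0.75 (limma adjusted p = 0.0135), were lower.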

How the data were processed

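RNA of sorted LSK cells was sequenced by the authors from 2 *Pich*-KO and 2 *Pich*-WT samples, and groups were taken from the labels. The deposited values are a signal that the authors made from read counts on genes, divided by a size factor per sample. Division by the smallest positive value of each sample, taken as the value of 1 read, gave whole reads, within 0.001 of a whole number, for 100% of values. Further columns of the table hold the authors' group means, log2 fold changes and p-values and were not used. The submitters' processing notes name Bowtie 0.12.2 and the builds mm8 and mm9. Coordinates in the table are on GRCm38, since 97.8% of 39131 genes have the start and end of GENCODE M21, and their role beside the named builds is not given in the sources used here. The library kit does not mark strand.

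limma 3.58.1 in R 4.3.3 was run on log2(signal + 1) for genes averaging 1 or more, using a variance trend with abundance and Benjamini-Hochberg adjustment over all genes tested. The added 1 pulls the fold change of low genes toward 0, and a difference of mean logs can lie above or below the ratio of means, as it does above it for *Ifi208*. Alternatives were a pseudocount of 0.1, no filter, at least 10 reads in every sample, no variance trend, a log2 fold change of at least 1, edgeR 4.0.16 with TMM or upper-quartile scaling and DESeq2 1.42.0 on the recovered reads, a replicate block, and each sample left out. The procedure was tested on simulated data. Counting noise did not account for the differences within groups (chi-square per degree of freedom 17.7 in *Pich*-KO and 9.54 in *Pich*-WT), so each sample counted as 1 replicate. Depth was 14703215 to 20933919 reads on genes, and intervals cover the spread between samples.

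Named are the 10 genes, all further PYHIN genes of the table, the genes called near the cluster, and of each pathway list the largest and smallest change called and genes whose role the text needs. *Stat2*, *Ninj1* and the uncalled STING pathway genes were named after their values were seen. Members and lists were chosen with earlier results of these data known. Promoters were read from RefSeq windows, and 50-base stretches from GENCODE M21 transcripts. A further gene of the interferon receptor list is not reported here and was left out of its counts. A planned comparison of protein sequences was not made here.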

Additional observations from a re-analysis of the deposited data

How the results depend on the processing

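Of the log2 fold changes of the 10 genes, none changed direction under any alternative run. With all samples kept, 58 alternative values stayed on the same side of the threshold, 16 were no longer past it and 5 became so. With each sample left out, 1 of the groups holds 1 sample. The log2 fold change of *Ifi208* then ranged from 1.72 to 5.15, the widest range of the 10 genes. Without the variance trend every count of calls was 0: higher and lower PYHIN genes, PYHIN genes outside the study's display, genes near the cluster, further PYHIN genes, inflammasome, STING and interferon receptor genes. PYHIN genes higher were 8, and 0 to 4 with a sample left out, those lower were 1, and 0 with a sample left out, and those outside the study's display were 5, and 0 to 2 with a sample left out. With a pseudocount of 0.1 the PYHIN genes lower were 0, genes near the cluster were 1 higher and 1 lower, further PYHIN genes 0 and 0, and inflammasome genes higher 1. Without the filter on the mean these were 0, 1 and 1, 0 and 0, and 0, and interferon receptor genes lower were 1. With a log2 fold change of at least 1, PYHIN genes lower were 0, those outside the display 3, genes near the cluster higher 1, inflammasome genes higher 0, STING genes higher 3 and interferon receptor genes lower 0. DESeq2 called 3 genes near the cluster lower and 0 further PYHIN genes lower. With a sample left out, genes near the cluster were 0 higher and 0 to 1 lower, further PYHIN genes 0 higher and 0 to 1 lower, inflammasome genes 0 higher and 0 to 1 lower, STING genes 0 to 2 higher, and interferon receptor genes 0 to 2 higher and 0 lower. At least 2 ISRE cores in a window were found in 0 of the 9 genes, and with 1 mismatch allowed, chosen after seeing the data, all 9 genes and 35.4% of all windows held a core. *Mndal* was at 52.9 RPKM in *Pich*-KO with exon union length and 94.7 with the longest transcript. Other than these, the cause of the differences was not tested.

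With the replicate number as a block, 9 PYHIN genes were higher and 1 lower, *Aim2* passing (limma adjusted p = 0.017), and 3122 genes of the table were higher and 3874 lower, against 2459 and 3113 without it. The numbers share nothing that the labels state, and deviations of same-numbered samples had a correlation of 0.0133 over 10544 genes, so the block was not used for the values given. With 2 samples a group, the depth of low genes such as *Ifi208*, with 8 reads in *Pich*-WT sample 1, limits what can be said of them.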

Other observations

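The 10 letters GAAATCGAAA, chosen after the promoters of the PYHIN genes had been read, occur in the windows of 16 genes, of which 7 are PYHIN genes (6 of the 10 described and *Ifi214*). Of the other 9 genes, 8 are in the table, and 2 of them were higher in *Pich*-KO, 2 lower and 4 did not pass, where 7.58% of all genes tested were higher and 9.6% lower. *Ddx58*, which encodes the RNA sensor RIG-I, had 2335 and 1114 normalized counts in *Pich*-KO against 566 and 654 in *Pich*-WT (log2 fold change 1.41, limma adjusted p = 0.0147). *Parp11* had 901 and 613 against 395 and 417 (log2 fold change 0.87, limma adjusted p = 0.021). The lower genes were *Pnrc1*, with 1890 and 1429 against 3686 and 3705 (log2 fold change -1.17, limma adjusted p = 0.00103), and *Serpinb6a*, with 217 and 202 against 996 and 1078 (log2 fold change -2.30, limma adjusted p = 8.68e-05).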
